A study of Mus musculus with 12 samples.

Results

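Per1, Per2, Per3, Cry1, Cry2, Nr1d1, Nr1d2, Ciart, Dbp and Tef are repressors and 2 output transcription factors of the circadian clock. These 10 genes were chosen by symbol from the 27978 genes measured, with earlier results of these data known. All 10 passed the minimum mean of 1 FPKM (fragments per kilobase of transcript, scaled to the library's mapped total) and were among the 12559 genes tested. The samples were hippocampi of mice that had received a fecal microbiota transplant (FMT), with 4 RNA-seq libraries in each of FMT-SP, FMT-DSS and FMT-CON. FMT-SP is written FMT-DSS+SP in the series' design, SP being the neuropeptide substance P; what DSS and CON abbreviate is not given in the labels. All 3 groups were transplanted, so there is no untransplanted baseline in these comparisons. The hour of day at which tissue was taken, the lighting schedule, the strain, the age and the sex are not given in the labels, nor is whether each library came from 1 animal, so p-values measure the spread between these libraries, which may be technical.

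The circadian clock is a transcriptional feedback loop present in nearly every cell. CLOCK or NPAS2 pairs with BMAL1, binds E-boxes and activates the Per and Cry genes, whose proteins accumulate, enter the nucleus and block that pair. The nuclear receptors encoded by Nr1d1 and Nr1d2 (REV-ERB alpha and beta) repress Bmal1, while DBP and TEF are PAR bZIP factors that bind D-boxes and pass the rhythm on to other genes. In the brain the suprachiasmatic nucleus keeps the master rhythm, and the hippocampus has a rhythm of its own in these genes; Per1 is also induced directly by glucocorticoids and by neuronal activity.

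Every hippocampal marker list was detected in every library. The summed level of 5 dentate granule cell markers was 86.1 to 104 FPKM in FMT-SP, 75.8 to 102 FPKM in FMT-DSS and 90.9 to 123 FPKM in FMT-CON. The 5 markers of the hippocampal field CA1 had their highest sums in FMT-DSS 2 (239 FPKM) and FMT-DSS 4 (215.7 FPKM). No other library exceeded 205.6 FPKM. Itpka made up 116 FPKM of the sum in FMT-DSS 2 and 112.6 FPKM of that in FMT-DSS 4. Itpka, Spink8 and Pou3f1 were higher in both than in each of the other 10 libraries. Fibcd1 was so in FMT-DSS 2 (29.9 FPKM) but not in FMT-DSS 4 (21.1 FPKM). Wfs1 was so in neither FMT-DSS 2 (41.5 FPKM) nor FMT-DSS 4 (29.1 FPKM). For the field CA3 the sums of these libraries, 127.9 and 134.4 FPKM, lay within the range of the rest. The part of CA1 tissue in the clock gene values was not tested. Of 6 markers of the suprachiasmatic nucleus, 2 had a mean of at least 1 FPKM and 3 (Nms, Six6 and Prok2) were at 0 in at least 1 library. Libraries stood apart in markers of neighbouring tissue: the 7 choroid plexus markers summed to 18.1 to 3840.4 FPKM in FMT-SP, 1306 to 2929 FPKM in FMT-DSS and 30.5 to 3609 FPKM in FMT-CON. The 6 pituitary and hypothalamic hormone genes summed to 3581 FPKM in FMT-CON 3, and the mitochondrially encoded genes took their largest share of FPKM within each group in the library numbered 4 (23.97% in FMT-SP 4, 29.0% in FMT-DSS 4 and 27.7% in FMT-CON 4). Depth, estimated from the spacing of low values, was 31.4 to 37.3 M mapped fragments per library, at which 1 FPKM in a transcript of 2000 bases rests on 62.8 to 74.6 fragments.

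The promoters of these genes were searched for the elements through which the loop acts. RefSeq promoters of GRCm38.p6, from 250 bases before to 50 bases after a transcription start, were found for 9 of the 10 genes (all but Per2), in 11 windows, since Per1 and Tef each have 2 starts. The E-box CACGTG, which reads the same on both strands, was present in 5 of the 11 windows, belonging to Ciart, Cry1, Per1 and Tef, against 7.15% of 32851 promoters of the same length. Ciart had 3 copies, a number reached in 0.0883% of all promoters. The D-box TTATGTAA, searched on both strands, occurred in 0.938% of promoters; among these genes it was found in Per3 alone, with 2 copies, a number reached in 0.0213%. No E-box match overlapped a D-box match. The sequences below, 5′ to 3′ on the gene's strand, are the bases before each RefSeq start that lie outside the exons GENCODE gives for the gene, and both Per1 starts lie inside the gene's GENCODE span. They are shown for Ciart and Per1 because their levels went together across libraries and for Per3 because it followed Dbp, whose protein binds D-boxes. Capitals mark E-boxes in Ciart and Per1 and D-boxes in Per3, and these matches are descriptions of letters, not of binding.
Ciart, chr3:95882252-95882478, minus strand: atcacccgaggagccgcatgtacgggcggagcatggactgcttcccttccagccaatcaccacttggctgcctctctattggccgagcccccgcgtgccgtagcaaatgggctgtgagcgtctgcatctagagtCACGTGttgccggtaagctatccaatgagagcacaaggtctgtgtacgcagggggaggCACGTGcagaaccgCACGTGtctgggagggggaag
Per1, first start, chr11:69098699-69098947, plus strand: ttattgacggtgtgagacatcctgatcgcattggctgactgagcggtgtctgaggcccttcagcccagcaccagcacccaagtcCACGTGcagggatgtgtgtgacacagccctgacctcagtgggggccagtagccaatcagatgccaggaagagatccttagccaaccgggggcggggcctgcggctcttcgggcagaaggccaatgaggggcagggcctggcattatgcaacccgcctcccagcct
Per1, second start, chr11:69099902-69100151, plus strand: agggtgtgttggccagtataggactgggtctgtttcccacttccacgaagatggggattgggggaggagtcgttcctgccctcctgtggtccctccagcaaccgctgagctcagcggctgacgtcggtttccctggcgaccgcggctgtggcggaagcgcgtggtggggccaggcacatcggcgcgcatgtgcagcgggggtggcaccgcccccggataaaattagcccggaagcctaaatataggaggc
Per3, chr4:151044666-151044915, minus strand: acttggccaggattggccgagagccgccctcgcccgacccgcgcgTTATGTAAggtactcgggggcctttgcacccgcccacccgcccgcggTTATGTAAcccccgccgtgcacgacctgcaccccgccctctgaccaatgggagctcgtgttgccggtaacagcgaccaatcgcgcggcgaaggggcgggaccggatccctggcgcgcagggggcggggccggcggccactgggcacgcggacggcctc
The E-boxes of Ciart begin 116, 58 and 44 bases before its start, that of Per1 begins 166 bases before the first start, and the D-boxes of Per3 begin 205 and 158 bases before its start. The second Per1 start has neither element in its window, and the FPKM table gives 1 value per gene, so the starts cannot be told apart in the levels.

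Levels per length, averaged over the 12 libraries, put the output factor Tef first at 46.1 FPKM, followed by Nr1d1 at 28.8, Cry2 at 26.1, Nr1d2 at 20.2 and Dbp at 19.0 FPKM. A lower tier held Per1 at 8.81, Per3 at 7.78, Per2 at 7.003 and Ciart at 6.91 FPKM, and Cry1 was lowest at 3.76 FPKM. Dbp was above Per1 in 12 of 12 libraries, with a gap of 2.10 times the larger SD of the pair, and the neighbours Tef and Nr1d1 as well as Cry2 and Nr1d2 were also separated by more than the larger SD (1.41 and 1.38 times). Every other neighbouring pair in that order differed by less than the larger SD, from 0.02 times for Per2 and Ciart to 0.71 times for Ciart and Cry1. Ciart had a coefficient of variation of 64.6% and spanned 5.75-fold, Nr1d1 42.4% and Per1 38.0%, while Nr1d2 had 13.48% and Tef, the most abundant, 11.4% and a span of 1.41-fold.

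**Figure D1:**
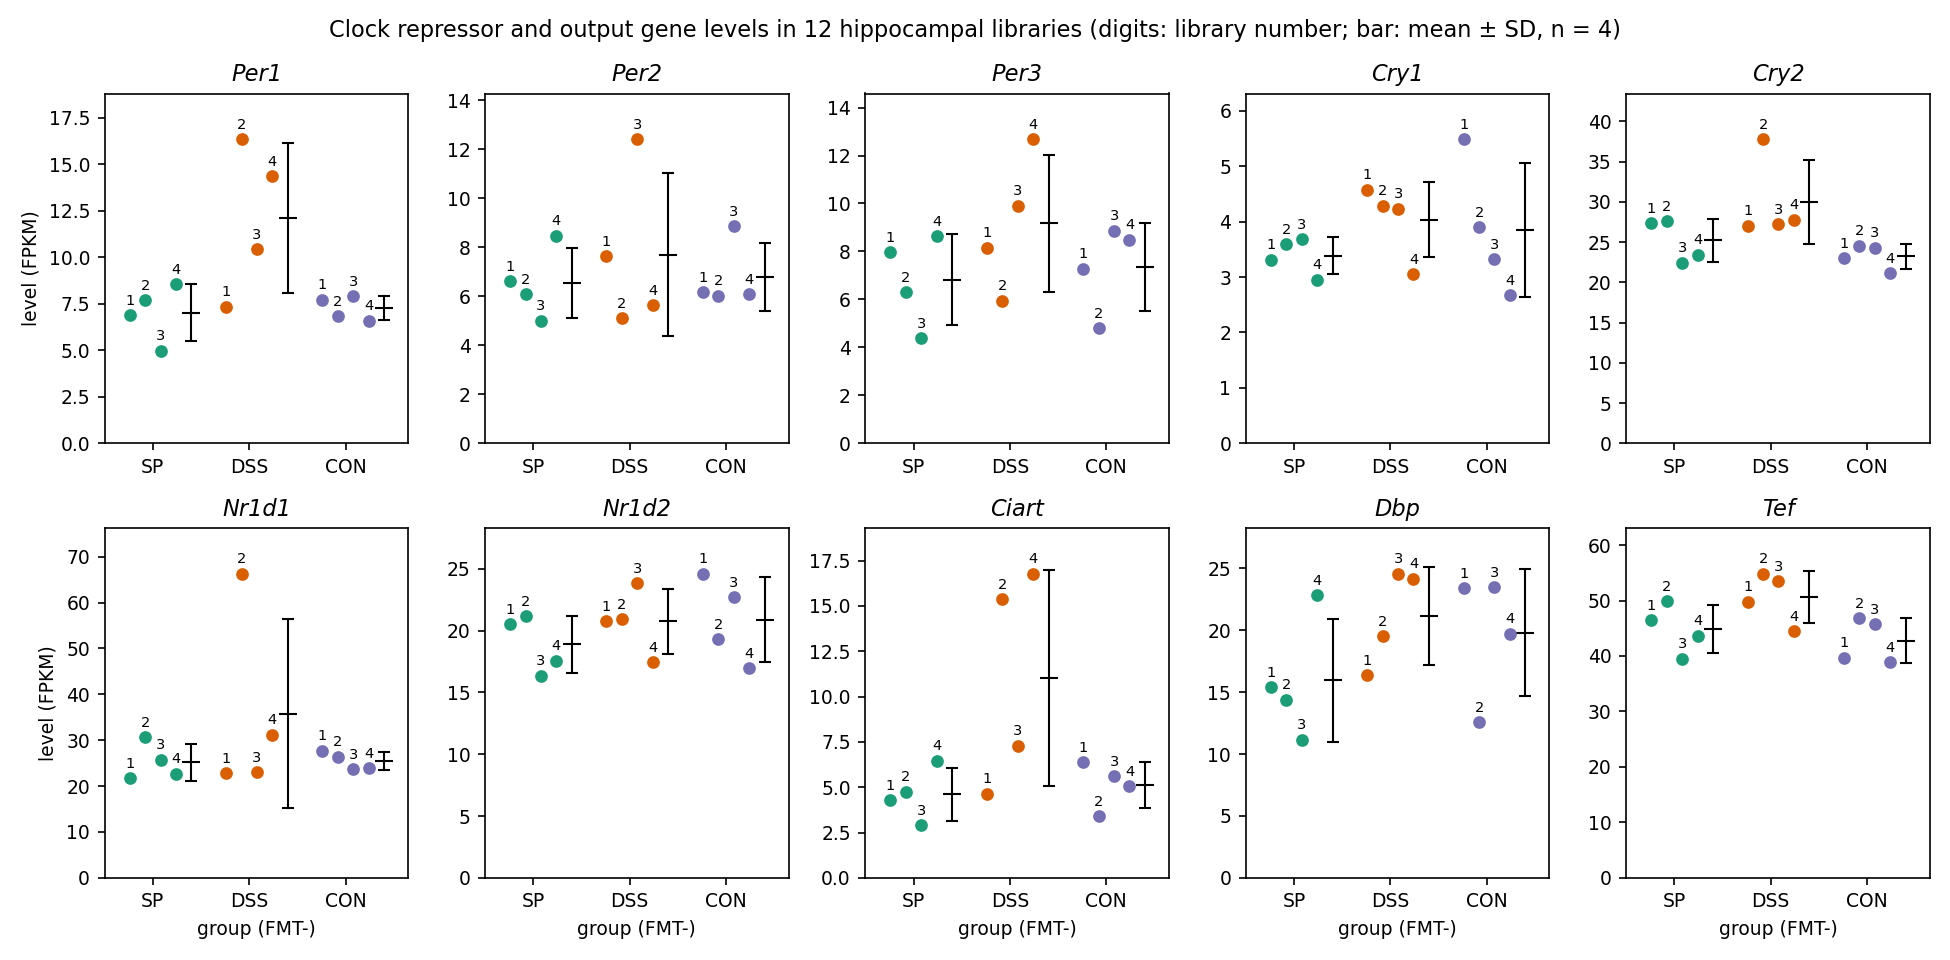
FPKM of each of the 10 clock genes in every library, with 1 panel per gene, points for libraries in FMT-SP, FMT-DSS and FMT-CON from left to right, and the group mean with its SD. Per1 and Ciart reach their highest values in FMT-DSS 2 and FMT-DSS 4 (16.4 and 14.4 FPKM for Per1, 15.4 and 16.8 FPKM for Ciart), while Tef varies least.

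The period genes encode the PER proteins, which carry the CRY proteins into the nucleus and set the length of the cycle. Per1 (chromosome 11, 69095217 to 69109960, plus strand; positions here and below are those of GENCODE vM21 on GRCm38) had 6.90, 7.69, 4.99 and 8.55 FPKM in FMT-SP 1 to 4, 7.35, 16.4, 10.5 and 14.4 FPKM in FMT-DSS 1 to 4, and 7.72, 6.83, 7.92 and 6.60 FPKM in FMT-CON 1 to 4. FMT-DSS 2 and FMT-DSS 4 lay above all other libraries, FMT-DSS 3 next, and FMT-DSS 1 within the range of FMT-CON. Its means were 7.03 ± 1.52 FPKM in FMT-SP, 12.1 ± 4.02 FPKM in FMT-DSS and 7.26 ± 0.650 FPKM in FMT-CON (SD, n = 4 each). The difference on the log2(FPKM + 1) scale was -0.67 ± 0.21 (SE) in FMT-SP against FMT-DSS, 0.62 ± 0.21 in FMT-DSS against FMT-CON and -0.06 ± 0.21 in FMT-SP against FMT-CON, the last with a 95% interval of -0.51 to 0.39. Limma's unadjusted p was 0.00679 and 0.0116 in the first and second of these, and neither passed after adjustment over all 12559 genes (limma adjusted p = 0.999 and 0.966).

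Per2 (chromosome 1, 91415982 to 91459324, minus strand), whose mutation disrupts the rhythm of mice kept in darkness, was high in other libraries than Per1. It had 6.60, 6.08, 4.996 and 8.46 FPKM in FMT-SP 1 to 4, 7.63, 5.11, 12.4 and 5.63 FPKM in FMT-DSS 1 to 4, and 6.17, 6.02, 8.86 and 6.08 FPKM in FMT-CON 1 to 4. FMT-DSS 3 was highest, FMT-CON 3 and FMT-SP 4 came next, and FMT-DSS 2 and FMT-DSS 4, the libraries with the most Per1, were among the lowest 3 of the 12. Per3 (chromosome 4, 151003652 to 151044665, minus strand), which mice can lose with little effect on their rhythm, had 7.97, 6.29, 4.37 and 8.63 FPKM in FMT-SP 1 to 4, 8.15, 5.95, 9.90 and 12.7 FPKM in FMT-DSS 1 to 4, and 7.28, 4.81, 8.87 and 8.49 FPKM in FMT-CON 1 to 4. For Per3 all groups overlapped, with the lowest value in FMT-SP 3 and the highest in FMT-DSS 4. Means of Per2 were 6.54 ± 1.45 FPKM in FMT-SP, 7.69 ± 3.32 FPKM in FMT-DSS and 6.78 ± 1.39 FPKM in FMT-CON, and those of Per3 were 6.81 ± 1.90 FPKM in FMT-SP, 9.17 ± 2.85 FPKM in FMT-DSS and 7.36 ± 1.83 FPKM in FMT-CON (SD, n = 4 each). Of the differences of these genes, that farthest from 0 was that of Per3 in FMT-SP against FMT-DSS, -0.37 ± 0.24 with an interval of -0.89 to 0.15; the intervals of Per2 were -0.65 to 0.34 in FMT-SP against FMT-DSS and -0.39 to 0.60 in FMT-DSS against FMT-CON. Without FMT-SP 3 that difference of Per3 was -0.20, and without FMT-DSS 4 it was -0.21.

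Within a library, the balance between Per1 and Per2 set FMT-DSS 2 and FMT-DSS 4 apart from the rest. The ratio of Per1 to Per2 in FPKM was 3.20 in FMT-DSS 2 and 2.55 in FMT-DSS 4, and in the other 10 libraries it stayed between 0.842 and 1.26. The ratio was chosen after its values were seen and has no test.

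The cryptochromes encode the main repressors of the CLOCK and BMAL1 pair. Cry2 (chromosome 2, 92403646 to 92434043, minus strand) had 27.4, 27.6, 22.4 and 23.4 FPKM in FMT-SP 1 to 4, 27.0, 37.8, 27.2 and 27.8 FPKM in FMT-DSS 1 to 4, and 23.01, 24.5, 24.3 and 21.1 FPKM in FMT-CON 1 to 4. The lowest FMT-DSS library (27.0 FPKM) was above the highest FMT-CON library (24.5 FPKM), so those groups did not overlap, whereas FMT-SP reached into FMT-DSS. Its means were 25.2 ± 2.67 FPKM in FMT-SP, 29.95 ± 5.23 FPKM in FMT-DSS and 23.2 ± 1.56 FPKM in FMT-CON (SD, n = 4 each), and the difference in FMT-DSS against FMT-CON was 0.34 ± 0.12, with a limma adjusted p of 0.966 over all genes. The exact two-sided permutation test over the 70 assignments of 8 libraries gave the smallest p it can, 0.0286, which became 0.51 when adjusted over the 30 tests of these genes. Cry1 (chromosome 10, 85131700 to 85185064, minus strand) had 3.31, 3.60, 3.68 and 2.95 FPKM in FMT-SP 1 to 4, 4.58, 4.29, 4.23 and 3.05 FPKM in FMT-DSS 1 to 4, and 5.49, 3.898, 3.32 and 2.67 FPKM in FMT-CON 1 to 4. It spread most within FMT-CON, where FMT-CON 1 had the highest and FMT-CON 4 the lowest value of all 12 libraries. Cry1 means were 3.38 ± 0.331 FPKM in FMT-SP, 4.04 ± 0.675 FPKM in FMT-DSS and 3.84 ± 1.21 FPKM in FMT-CON (SD, n = 4 each), with differences from -0.19 in FMT-SP against FMT-DSS to 0.08 in FMT-DSS against FMT-CON. Cry2 shares 295 exonic bases with D930015M05Rik on the opposite strand, a transcript at no more than 0.28 FPKM in any library.

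The nuclear receptors Nr1d1 and Nr1d2 repress Bmal1 and are themselves under E-box control. Nr1d1 (chromosome 11, 98767932 to 98775333, minus strand) had 21.7, 30.7, 25.8 and 22.7 FPKM in FMT-SP 1 to 4, 22.8, 66.3, 22.99 and 31.2 FPKM in FMT-DSS 1 to 4, and 27.7, 26.4, 23.6 and 23.9 FPKM in FMT-CON 1 to 4. FMT-DSS 2 stood above every other library, and the rest of FMT-DSS overlapped FMT-SP and FMT-CON. The means were 25.2 ± 4.04 FPKM in FMT-SP, 35.8 ± 20.7 FPKM in FMT-DSS and 25.4 ± 1.97 FPKM in FMT-CON (SD, n = 4 each). The log2 difference in FMT-DSS against FMT-CON was 0.34 ± 0.27 with all libraries, 0.00082 without FMT-DSS 2 and -0.14 with FMT-DSS 4 left out too. In FMT-SP against FMT-DSS it was -0.36 ± 0.27 with all libraries and -0.02 without FMT-DSS 2. Nr1d2 (chromosome 14, 18204054 to 18239127, minus strand) had 20.5, 21.1, 16.3 and 17.6 FPKM in FMT-SP 1 to 4, 20.8, 20.9, 23.8 and 17.4 FPKM in FMT-DSS 1 to 4, and 24.6, 19.3, 22.7 and 17.0 FPKM in FMT-CON 1 to 4. All 3 groups of Nr1d2 overlapped, and its differences were -0.13 ± 0.13 in FMT-SP against FMT-DSS, -0.0042 ± 0.13 in FMT-DSS against FMT-CON and -0.13 ± 0.13 in FMT-SP against FMT-CON, with an interval of -0.29 to 0.28 for the second. The ratio of Nr1d1 to Nr1d2 was 3.17 in FMT-DSS 2, 1.79 in FMT-DSS 4 and 0.964 to 1.58 in the other 10. Exons of Nr1d1 share 263 bases (8.55% of its exonic bases) with Thra, the thyroid hormone receptor alpha gene on the opposite strand, and whether the libraries keep strand is not given, so reads there cannot be told apart. Thra was at 134 ± 13.8 FPKM in FMT-SP, 135 ± 9.49 FPKM in FMT-DSS and 119.5 ± 23.1 FPKM in FMT-CON, and at 145 FPKM in FMT-DSS 2.

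Ciart (chromosome 3, 95878503 to 95882251, minus strand), which encodes a repressor that binds BMAL1, showed the widest spread. It had 4.27, 4.76, 2.92 and 6.46 FPKM in FMT-SP 1 to 4, 4.64, 15.4, 7.29 and 16.8 FPKM in FMT-DSS 1 to 4, and 6.36, 3.41, 5.62 and 5.07 FPKM in FMT-CON 1 to 4. FMT-DSS 2 and FMT-DSS 4 held more than any other library, FMT-DSS 3 came next, and FMT-DSS 1 lay within the ranges of both other groups. The means were 4.601 ± 1.46 FPKM in FMT-SP, 11.02 ± 5.96 FPKM in FMT-DSS and 5.12 ± 1.25 FPKM in FMT-CON (SD, n = 4 each), which makes the ratio of means 0.418 in FMT-SP against FMT-DSS and 2.15 in FMT-DSS against FMT-CON. On the log2 scale the differences were -0.99 ± 0.33 (interval -1.71 to -0.26), 0.85 ± 0.33 (interval 0.12 to 1.57) and, in FMT-SP against FMT-CON, -0.14 ± 0.33. Limma's unadjusted p was 0.0118 and 0.0258, and the adjusted p over all genes 0.999 and 0.966. With FMT-DSS 2 and FMT-DSS 4 left out, which leaves 2 libraries in FMT-DSS, the FMT-SP against FMT-DSS difference was -0.33 for Ciart and -0.30 for Per1, and that of FMT-DSS against FMT-CON was 0.19 for Ciart and 0.25 for Per1. Per2 lay farther from 0 in that setting, at -0.53 and 0.48, than with all libraries, at -0.15 and 0.10.

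**Figure D2:**
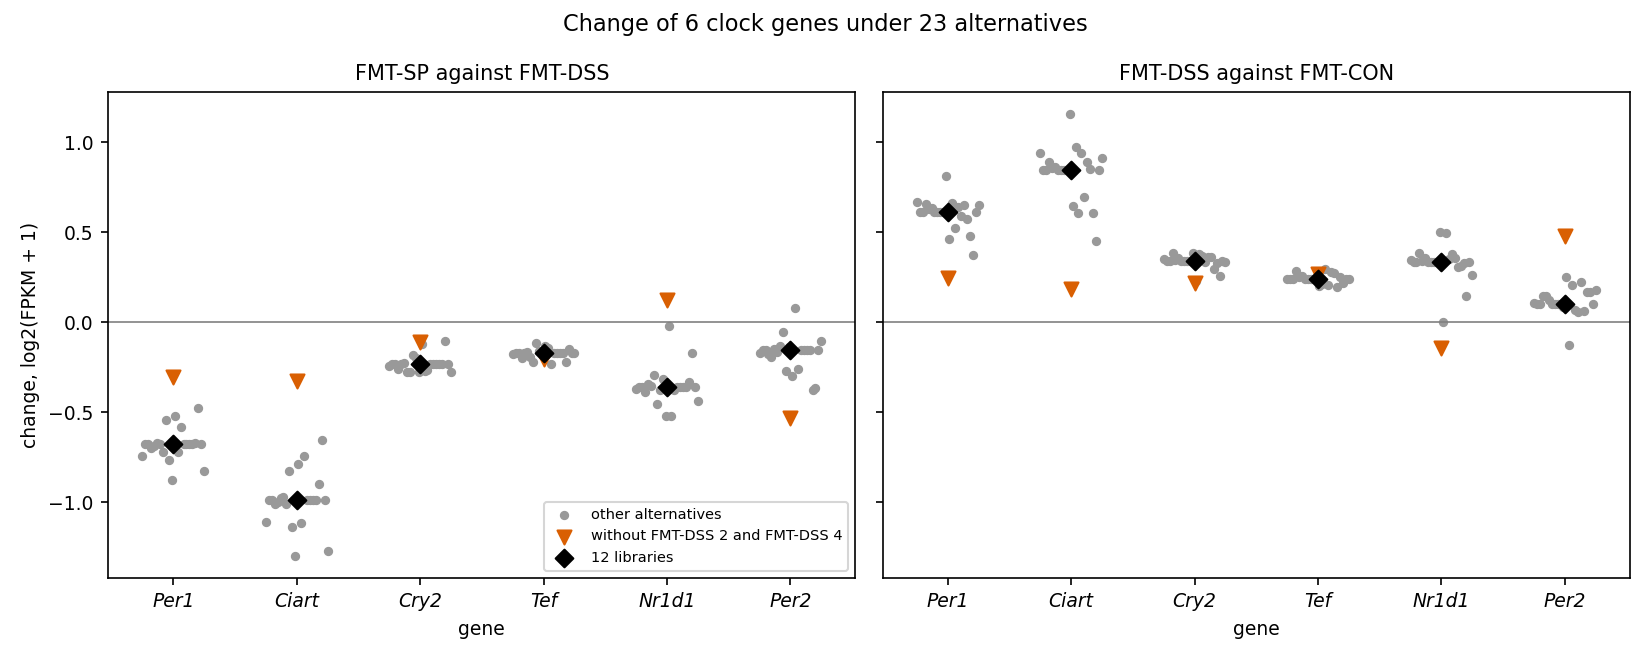
Difference on the log2(FPKM + 1) scale of 6 clock genes in FMT-SP against FMT-DSS and FMT-DSS against FMT-CON, with a diamond for all 12 libraries, a triangle without FMT-DSS 2 and FMT-DSS 4, and grey points for the other alternatives in processing. Ciart lies at 0.85 with all libraries and 0.19 at the triangle in FMT-DSS against FMT-CON, while Per2 lies farther from 0 at the triangle.

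The output factors DBP and TEF activate D-box genes. Dbp (chromosome 7, 45705088 to 45710203, plus strand), among the strongest cycling transcripts in mouse tissues, had 15.4, 14.4, 11.1 and 22.8 FPKM in FMT-SP 1 to 4, 16.4, 19.5, 24.6 and 24.2 FPKM in FMT-DSS 1 to 4, and 23.4, 12.6, 23.5 and 19.7 FPKM in FMT-CON 1 to 4. All 3 groups overlapped, with the highest values in FMT-DSS 3 and FMT-DSS 4 and the lowest in FMT-SP 3. Dbp means were 15.9 ± 4.94 FPKM in FMT-SP, 21.1 ± 3.93 FPKM in FMT-DSS and 19.8 ± 5.13 FPKM in FMT-CON (SD, n = 4 each), with differences of -0.41 ± 0.23 in FMT-SP against FMT-DSS, 0.11 ± 0.23 in FMT-DSS against FMT-CON and -0.30 ± 0.23 in FMT-SP against FMT-CON. Dbp shares 539 exonic bases (18.0%) with Sphk2 on the opposite strand; Sphk2 had 3.60 FPKM in FMT-DSS 2, 4.61 FPKM in FMT-DSS 4 and 6.04 to 6.85 FPKM elsewhere. Tef (chromosome 15, 81802421 to 81826863, plus strand), of the same PAR bZIP family, had 46.5, 49.9, 39.5 and 43.6 FPKM in FMT-SP 1 to 4, 49.8, 54.8, 53.4 and 44.5 FPKM in FMT-DSS 1 to 4, and 39.7, 46.8, 45.8 and 38.8 FPKM in FMT-CON 1 to 4. FMT-DSS 2 and FMT-DSS 3 were highest and FMT-CON 4 lowest, and the 3 groups overlapped. Tef means were 44.9 ± 4.39 FPKM in FMT-SP, 50.6 ± 4.62 FPKM in FMT-DSS and 42.8 ± 4.09 FPKM in FMT-CON (SD, n = 4 each), and its difference in FMT-DSS against FMT-CON, 0.24 ± 0.10, had an unadjusted limma p of 0.0336 and an adjusted p of 0.966. The ratio of Ciart to Dbp, like that of Per1 to Per2, was 0.788 in FMT-DSS 2 and 0.695 in FMT-DSS 4, against 0.239 to 0.331 in the other 10 libraries.

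**Figure D3:**
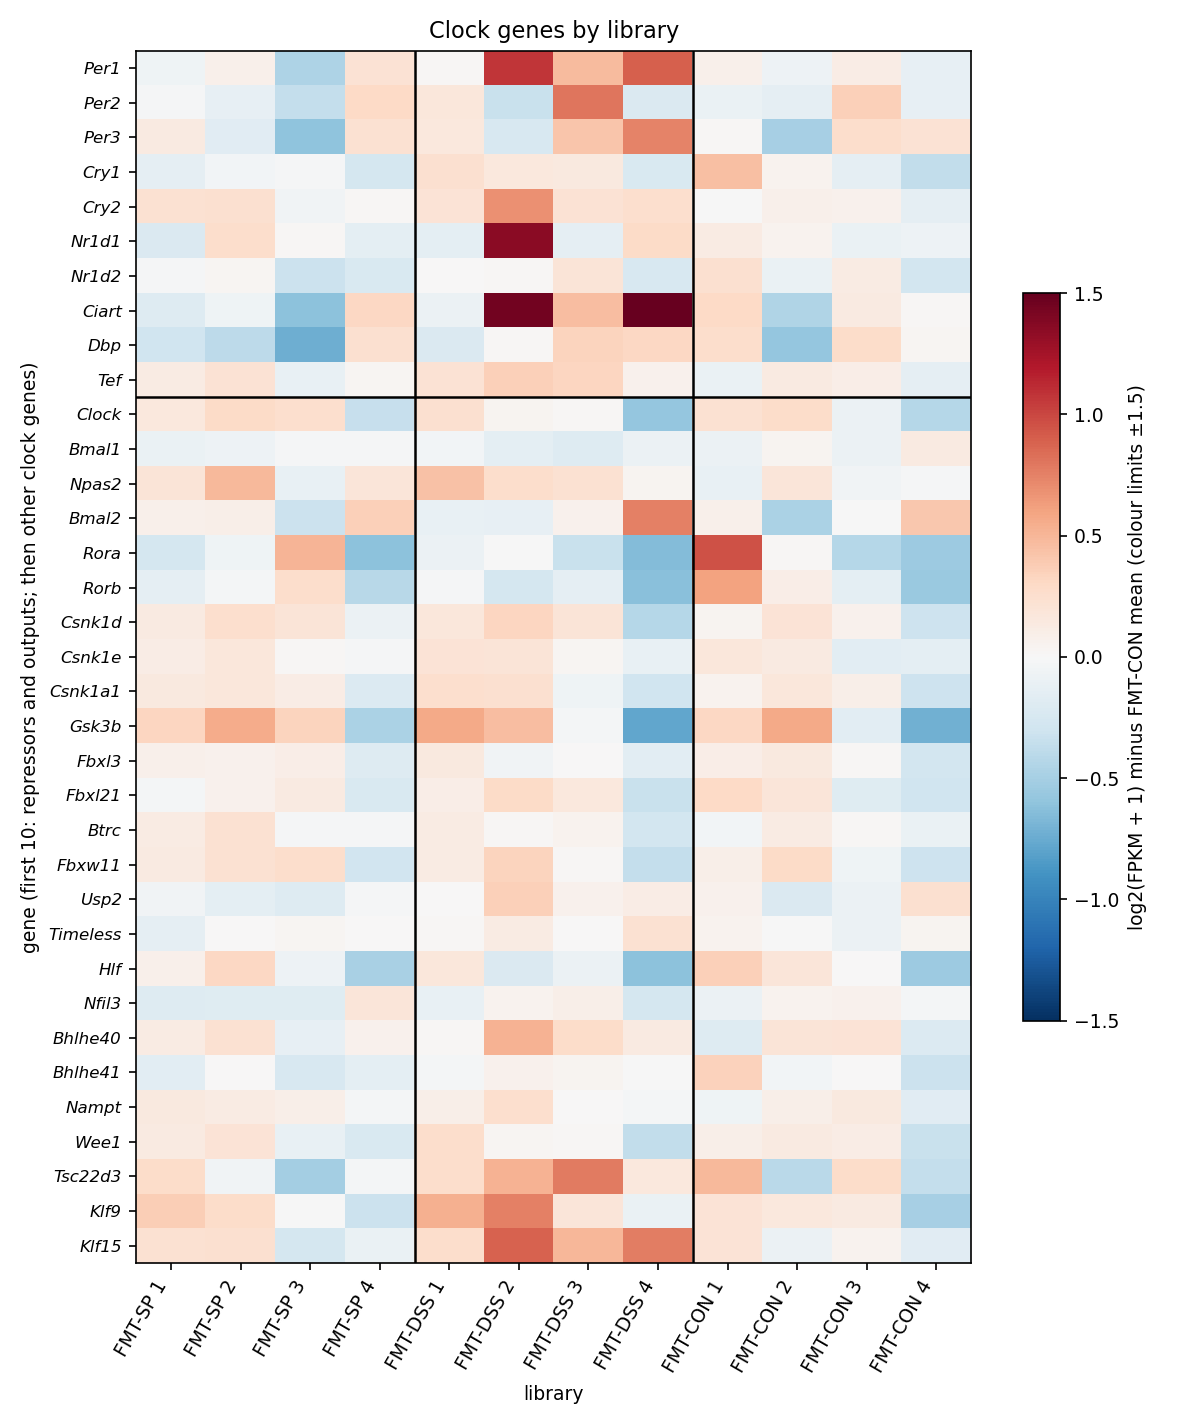
Difference of each gene from its FMT-CON mean on the log2(FPKM + 1) scale, with the 10 genes in the upper rows, other clock genes under the line, the 12 libraries in columns from FMT-SP to FMT-CON, and colour for the size and sign of the difference. FMT-DSS 2 shows Per1 at 1.07 and Per2 at -0.33, while FMT-SP 3 is below the FMT-CON mean in 9 of 10 genes.

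FMT-SP against FMT-DSS is the comparison that bears on substance P. In it 0 of the 10 genes passed an adjusted p of 0.05, as did 0% of all tested genes (0 of 12559; 314 at an unadjusted p under 0.05). On the log2 scale all 10 had a lower mean in FMT-SP, where 41.1% of all tested genes were lower, with a median difference of -0.30 against 0.03 over all genes. Per1 and Ciart had a lower mean at an unadjusted p under 0.05, 2 of 10 beside 1.23% of all genes. The groups overlapped in all 10, beside 1.27% of all genes whose groups did not. FMT-SP 3 held the lowest value of the 12 libraries in 6 of the 10 genes. That library also had 103.5 FPKM of the 6 thalamus markers, beside 14.9, 30.9 and 13.4 FPKM in FMT-SP 1, FMT-SP 2 and FMT-SP 4. Its choroid plexus sum, 3840 FPKM, was the highest of the 12 libraries. In FMT-CON 1 the thalamus markers summed to 195.6 FPKM. The part of thalamus tissue in the clock gene values was not tested. The count of 2 at an unadjusted p under 0.05 was 1 (Per2) without FMT-DSS 2 and FMT-DSS 4, beside 0.83% of all genes. It was 6 with choroid plexus and striatum marker levels as covariates, where 17.9% of all genes had such a p. In that setting 14 of all 12559 genes passed the adjusted threshold, and 0 of the 10 did.

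In FMT-DSS against FMT-CON, 0 of 10 passed the adjusted threshold, again as 0% of all genes (510 at an unadjusted p under 0.05). The genes other than Nr1d2 had a higher mean in FMT-DSS (9 of 10, beside 40.3% of all genes; Nr1d2 was also above 0 after each of 3 rescalings, at 0.02 to 0.04), with a median difference of 0.25 against -0.03 over all genes. At an unadjusted p under 0.05, 4 of 10 were higher, namely Ciart, Per1, Cry2 and Tef, beside 1.25% of all genes. That count was 5 with choroid plexus and striatal marker levels as covariates (Per3 added, beside 14.2% of all genes in either direction). It was 2 without FMT-DSS 2 (beside 1.95%) and 1 (Tef) without FMT-DSS 2 and FMT-DSS 4 (beside 1.29%). Groups did not overlap for Cry2, 1 of 10 beside 1.75% of all genes. The 4 FMT-DSS libraries stand in both of these comparisons, so their values are not independent of each other.

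In FMT-SP against FMT-CON, 0 of 10 passed the adjusted threshold beside 0% of all genes (45 at an unadjusted p under 0.05), 0 of 10 had an unadjusted p under 0.05 beside 0.358%, and 0 of 10 had groups that did not overlap beside 0.494%. Lower means in FMT-SP were found in 8 of 10, beside 53.3% of all genes; Cry2 and Tef had higher means. Without FMT-SP 3, the library with the most values lowest of the 12, Per1, Per2, Per3 and Ciart changed sign (0.08, 0.05, 0.07 and 0.02), and 6 of 10 were higher in FMT-SP. Dbp had the difference farthest from 0, -0.30 ± 0.23 with an interval of -0.79 to 0.19; it was -0.15 without FMT-SP 3, -0.48 without FMT-SP 4 and -0.49 without FMT-CON 2. The median of the 10 was -0.08 against -0.01 over all genes.

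**Figure D4:**
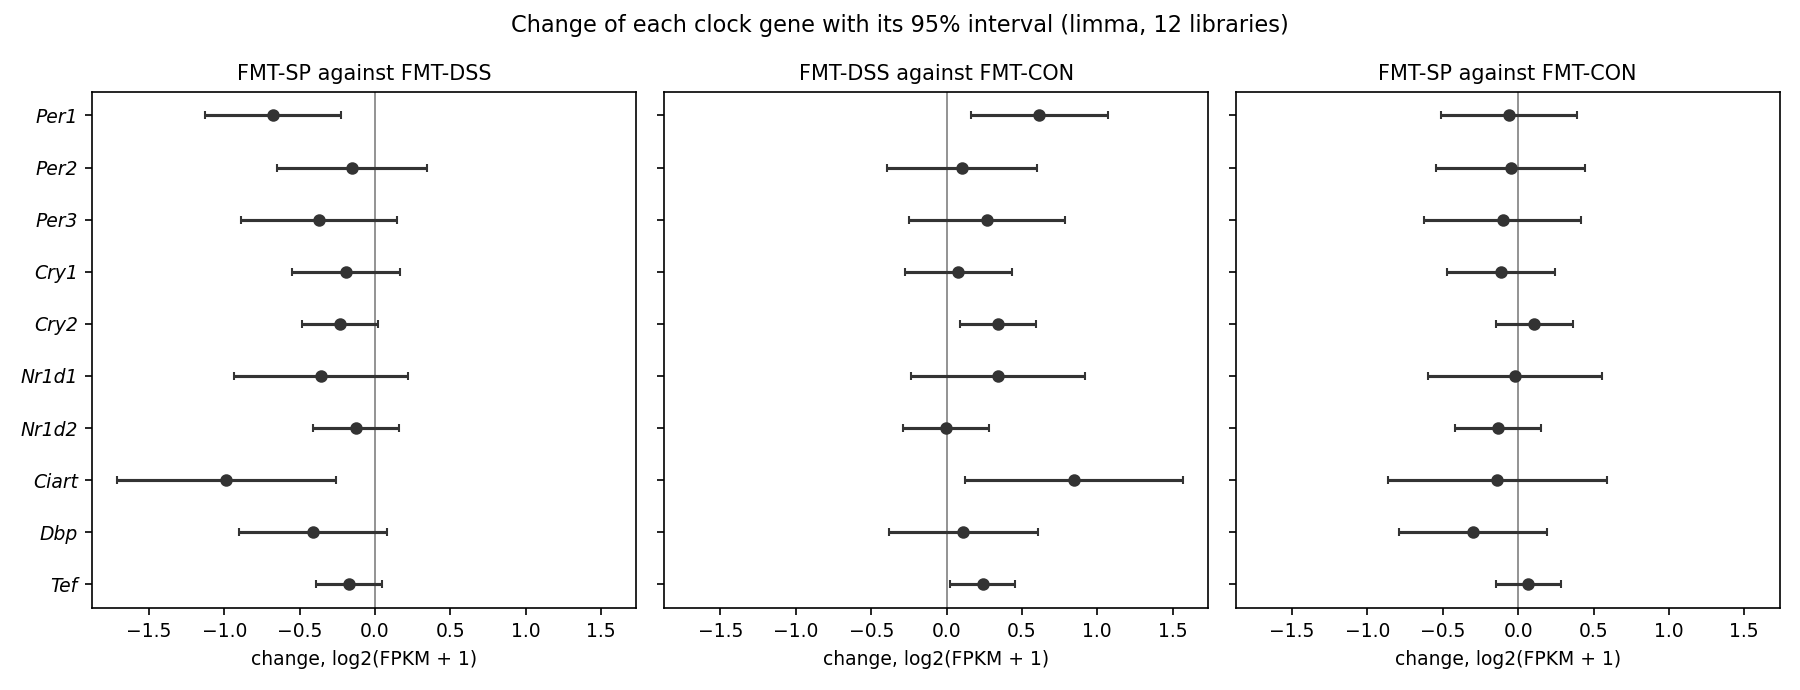
Difference of group means on the log2(FPKM + 1) scale with its 95% interval from limma for each of the 10 genes, in each of the 3 comparisons. The intervals of Per1 and Ciart exclude 0 in the first panel, those of Per1, Cry2, Ciart and Tef in the second, and 0 of the 10 genes pass after adjustment over all genes.

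Several of these genes varied together across libraries. Of the 45 pairs, 39 had a positive Pearson correlation of log2(FPKM + 1) over the 12 libraries, and 4 had an adjusted p under 0.05 over the 45 pairs by permutation test with 100000 resamples. One of the 4, Per1 and Cry2, had r = 0.77 and rho = 0.62 (permutation test, adjusted p = 0.039 and 0.196), and r = 0.46 without FMT-DSS 2 and FMT-DSS 4, so it rests on those libraries. Over all 12 libraries Per1 and Ciart had r = 0.96 and rho = 0.92 (permutation test, adjusted p = 0.00045 and 0.0036). Their values in FMT-DSS 2 and FMT-DSS 4 form a cluster of their own and lie farthest from the median of each. Correlations of these genes are therefore given below for the other 10 libraries. That choice came from the values of genes in these pairs, so p-values over those 10 libraries are descriptions and may be too small. There Per1 and Ciart had r = 0.88 and rho = 0.87 (permutation test, adjusted p = 0.0075 and 0.0163). Ciart and Dbp had r = 0.95 and rho = 0.92 there (permutation test, adjusted p = 0.00135 and 0.0163). Over all 12 libraries Ciart and Dbp had r = 0.67 and rho = 0.83 (permutation test, adjusted p = 0.105 and 0.0234). As deviations from the group means their r was 0.64. In the 10 libraries Per1 and Per2 had r = 0.88 and rho = 0.88 (permutation test, adjusted p = 0.0101 and 0.0163). For Per1 and Per2 this did not hold with FMT-DSS 2 and FMT-DSS 4 included. Over all 12 libraries that pair had r = 0.04 and rho = 0.23, without the libraries numbered 4 r = 0.15, and as deviations from the group means r = -0.15. Over those 10 libraries 8 of the 45 pairs passed: Per1 with Per2, Per3, Ciart and Dbp, Per3 with Ciart and Dbp, Ciart with Dbp, and Cry2 with Tef.

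Beside Per1 and Ciart, the pairs that passed both with and without FMT-DSS 2 and FMT-DSS 4 were Per3 and Dbp and Cry2 and Tef. Per3 and Dbp had r = 0.81 and rho = 0.87 over 12 libraries (permutation test, adjusted p = 0.016 and 0.0112) and r = 0.58 without FMT-SP 3 and FMT-CON 2, the libraries farthest from the median of Per3, so part of it rests on those. Cry2 and Tef had r = 0.83 and rho = 0.80 (permutation test, adjusted p = 0.00292 and 0.0349) and r = 0.78 without FMT-DSS 2 and FMT-CON 4. Among the 9 libraries not numbered 4, r was 0.79 for Per3 and Dbp, 0.82 for Cry2 and Tef and 0.66 for Ciart and Dbp, the 3 libraries numbered 4 being too few for a value of their own. By permutation test the adjusted p was then 0.0875 for Per3 and Dbp, 0.0178 for Cry2 and Tef and 0.192 for Ciart and Dbp, so that of these pairs Cry2 and Tef alone passed. As deviations from the group means, r was 0.80 for Per3 and Dbp, 0.70 for Cry2 and Tef and 0.93 for Per1 and Ciart, with adjusted p-values by permutation test of 0.0488, 0.12 and 0.00045 in that order. Deviations within a group are tied by its mean, while the permutation treated all 12 as free values. These p-values may therefore be too small, and that of Per3 and Dbp lies close to the threshold. The genes share each library's depth and cell makeup, whose part was not tested.

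**Figure D5:**
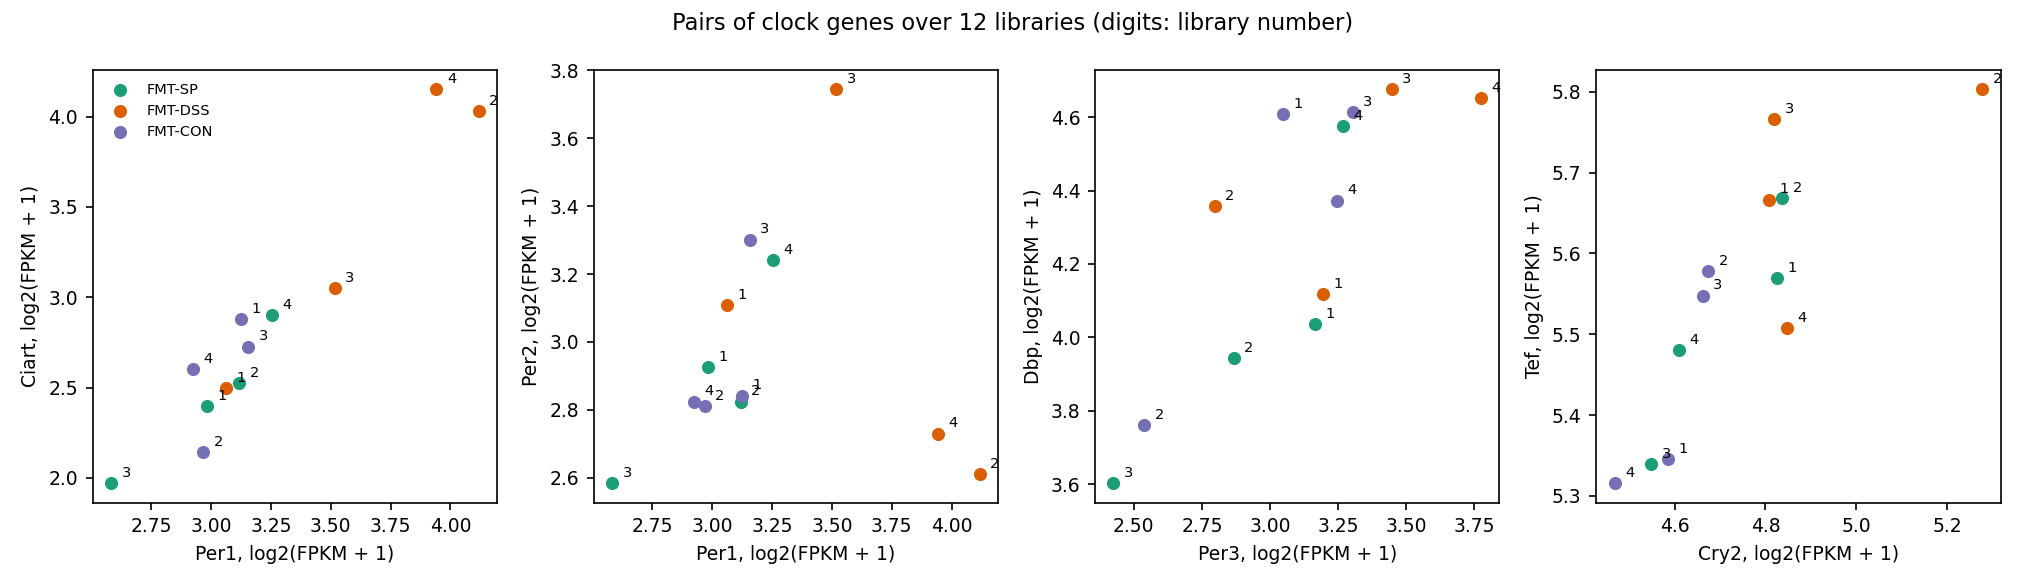
log2(FPKM + 1) of gene pairs across the 12 libraries, with 1 point per library, coloured by FMT-SP, FMT-DSS and FMT-CON. In the panels with Per1 on the x axis, FMT-DSS 2 and FMT-DSS 4 lie away from the other 10 libraries.

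Other measures moved with the same libraries. The 12 glucocorticoid-responsive genes of a marker list, all detected, summed to 341 to 639 FPKM in FMT-SP, 488 to 1065 FPKM in FMT-DSS and 364 to 602 FPKM in FMT-CON, with 1065 FPKM in FMT-DSS 2 and 949 FPKM in FMT-DSS 4. Mt2, a metallothionein gene, made up 643 FPKM of that sum in FMT-DSS 2 and 602 FPKM in FMT-DSS 4; without it the sums were 422 and 347 FPKM, beside 141 to 279.8 FPKM in the other 10 libraries. Gene by gene, 10 of the 12 in FMT-DSS 2 (all but Pdk4 and Tsc22d3) and 8 of the 12 in FMT-DSS 4 (all but Pdk4, Tsc22d3, Klf9 and Zbtb16) lay above each of the other 10 libraries. The share of all tested genes that did so in these libraries was not computed, so whether these counts are particular to the list was not tested. The 7 microglia markers, all detected, summed to 95.4 to 116 FPKM in FMT-SP, 52.0 to 111 FPKM in FMT-DSS and 83.1 to 117 FPKM in FMT-CON, with 76.0 FPKM in FMT-DSS 2 and 52.0 FPKM in FMT-DSS 4. The 8 striatal markers summed to 65.0 to 129.7 FPKM in FMT-SP, 92.5 to 371 FPKM in FMT-DSS, where FMT-DSS 3 was highest, and 73.1 to 182 FPKM in FMT-CON. With the choroid plexus and striatal marker levels as covariates, the difference in FMT-SP against FMT-DSS was -0.83 for Per1 and -1.27 for Ciart, and in FMT-DSS against FMT-CON it was 0.65 for Per1 and 0.92 for Ciart. The part of the glucocorticoid-responsive and microglial levels in the clock gene values was not tested, and in bulk tissue fewer cells of a type and less RNA per cell cannot be told apart.

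The rest of the clock was read from 3 lists. The 6 activators and partners given here (Clock, Bmal1, Npas2, Bmal2, Rora and Rorb), which drive the loop that the genes above repress, were all tested, and 0 passed in any comparison, adjusted or unadjusted. Clock averaged 9.31 ± 1.92 FPKM in FMT-SP, 8.30 ± 2.06 FPKM in FMT-DSS and 8.74 ± 2.07 FPKM in FMT-CON, and Bmal1, the target of the REV-ERB repressors, 1.87 ± 0.0790 FPKM in FMT-SP, 1.74 ± 0.126 FPKM in FMT-DSS and 1.98 ± 0.231 FPKM in FMT-CON (SD, n = 4 each). Npas2, which can stand in for Clock in the forebrain, averaged 7.24 ± 1.37 FPKM in FMT-SP, 7.52 ± 0.953 FPKM in FMT-DSS and 6.18 ± 0.663 FPKM in FMT-CON (SD, n = 4 each). The activators' median difference was 0.11 in FMT-SP against FMT-DSS, -0.09 in FMT-DSS against FMT-CON and -0.0021 in FMT-SP against FMT-CON, with 4, 2 and 3 of 6 higher.

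Modifiers of clock proteins (the casein kinases Csnk1d, Csnk1e and Csnk1a1, Gsk3b, and genes of ubiquitin transfer and removal) had 8 of 10 members tested, Fbxl21 and Timeless being under the filter. None of the 8 passed, adjusted or unadjusted; 6, 6 and 7 of 8 were higher in the 3 comparisons in the order above, with medians of 0.04, 0.04 and 0.08. Usp2, a ubiquitin protease that is itself a rhythmic transcript, had 8.56, 7.99, 7.66 and 8.82 FPKM in FMT-SP 1 to 4, 8.99, 11.8, 9.41 and 9.77 FPKM in FMT-DSS 1 to 4, and 9.39, 7.56, 8.36 and 10.7 FPKM in FMT-CON 1 to 4. Its FMT-SP and FMT-DSS libraries did not overlap (1 of 8, beside 1.27% of all genes), with a difference of -0.24 ± 0.11 and a limma adjusted p of 0.999. Of the 9 further outputs and modulators, 0 passed after adjustment, and 3, 6 and 4 were higher in the 3 comparisons. At an unadjusted p under 0.05, 2 were lower in FMT-SP against FMT-DSS (beside 1.23%) and 1 was higher in FMT-DSS against FMT-CON (beside 1.25%); Tsc22d3 and Klf9 stand on the glucocorticoid list as well. Klf15, a metabolic transcription factor under both clock and glucocorticoid control, had 4.91, 4.94, 3.18 and 3.71 FPKM in FMT-SP 1 to 4, 5.04, 8.30, 6.12 and 7.61 FPKM in FMT-DSS 1 to 4, and 4.80, 3.73, 4.22 and 3.49 FPKM in FMT-CON 1 to 4. FMT-DSS overlapped neither FMT-SP nor FMT-CON in Klf15, 1 of 9 in each comparison beside 1.27% and 1.75% of all genes. Both comparisons share the same 4 FMT-DSS libraries. The differences of Klf15 were -0.58 ± 0.16 in FMT-SP against FMT-DSS and 0.60 ± 0.16 in FMT-DSS against FMT-CON, with limma adjusted p-values of 0.999 and 0.966. Tsc22d3, the glucocorticoid-induced leucine zipper gene, was the other output in that count, at -0.51 ± 0.22 in FMT-SP against FMT-DSS. Hlf, the remaining PAR bZIP factor of this family, averaged 20.7 ± 4.82 FPKM in FMT-SP, 18.6 ± 4.30 FPKM in FMT-DSS and 21.5 ± 5.55 FPKM in FMT-CON (SD, n = 4 each).

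For each gene, the 2 tested genes outside the list with the highest Pearson r over the 12 libraries are given as a description. Ppif, the mitochondrial cyclophilin D gene, was first for both Per1 (r = 0.95) and Ciart (r = 0.96), with values of 0.78 and 0.83 over the 10 libraries other than FMT-DSS 2 and FMT-DSS 4. Second came Fas, a death receptor gene, for Per1 (r = 0.92) and Map3k6 for Ciart (r = 0.96), at 0.66 and 0.78 over those 10 libraries. Nr1d1 was followed most closely by Il4ra, the interleukin 4 receptor alpha chain (r = 0.98), and Adamts1, a secreted protease (r = 0.97); over those 10 libraries the values were 0.88 and 0.71. The nearest to Per2 were Rundc1 (r = 0.89) and Slf2 (r = 0.88), and to Per3 Psme4 (r = 0.93) and Pan3 (r = 0.92). Cry1 was nearest to Cux1 (r = 0.95) and Slc15a4 (r = 0.93). Cry2 was nearest to Arih2 (r = 0.93) and Fbxo21 (r = 0.92), both at 0.78 over those 10 libraries. Nr1d2 had Ahnak (r = 0.90) and Mat2a (r = 0.89), and Dbp had Maco1 (r = 0.94) and Ppfia1 (r = 0.90). Tef was nearest to Bhlhe40 (r = 0.89), which encodes another clock repressor, and Gcnt2 (r = 0.88). They were picked as the highest of all tested genes, and each shares its libraries, depth and scaling with its partner.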

How the data were processed

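Hippocampal RNA of 12 libraries was measured by RNA-seq, and the authors deposited 1 table of FPKM per gene and library. Per the submitters' processing notes, HISAT2 2.0 and the build mm8 were named, with no role given; for the counter, the annotation and any filters, the sources used here name none. FPKM is relative to each library's total, so a gene's value also moves with the share other genes take. Groups and replicate numbers came from the sample titles. Read counts were not used here; depth was estimated from the spacing of low FPKM values in 4713 genes with a single transcript in GENCODE vM21, where 39.5% to 42.7% lay within 0.05 of a whole fragment, against 10% by chance.

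Values were tested as log2(FPKM + 1), with a pseudocount of 1, in the 12559 of 27978 genes averaging 1 FPKM or more. All 12 libraries were fitted in 1 model with limma 3.58.1 (R 4.3.3), with a mean-variance trend, and p-values were adjusted by Benjamini-Hochberg over all tested genes for each of 3 two-sided comparisons, at a threshold of 0.05. The model was tested on simulated data. Single values were compared by exact permutation over 70 assignments, and the 45 gene pairs by permutation with 100000 resamples, adjusted over the 45, in python 3.11.15 with numpy 2.4.6 and pandas 2.3.3. The 10 genes and the lists were chosen with earlier results of these data known. Named genes were the 10, 3 lists of other clock genes, and for each of the 10 the 2 tested genes of highest Pearson r. A gene of these lists is not reported here and is left out of the list counts. Mitochondrially encoded genes carry no mt- prefix in the table and were matched as ND1, COX1, CYTB and the like. Alternatives were another pseudocount and filters, 3 rescalings, a replicate block, marker covariates, array weights, and leaving out libraries.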

Additional observations from a re-analysis of the deposited data

Results flagged for a closer look

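In 30 sets of 4 libraries (10 genes in 3 groups), 2 had a library far from the other 3 by Dixon's test at the 95% level, which chance gives in about 1 of 20 sets. Cry2 was at 37.8 FPKM in FMT-DSS 2, against 27.0 to 27.8 FPKM in the other FMT-DSS libraries. Without that library the difference of Cry2 was -0.12 in FMT-SP against FMT-DSS and 0.23 in FMT-DSS against FMT-CON, against -0.23 and 0.34 with it. Per2 was at 8.86 FPKM in FMT-CON 3, against 6.02 to 6.17 FPKM in the other FMT-CON libraries. Without that library the difference of Per2 was 0.07 in FMT-SP against FMT-CON, against -0.05 with it.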

How the results depend on the processing

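Under 23 alternatives, 0 of the 10 genes had an adjusted p under 0.05 in any comparison, and 663 of 690 differences kept their sign. Over all genes, 14 of 12559 had such an adjusted p in FMT-SP against FMT-DSS with choroid plexus and striatum covariates. That was the only setting and comparison in which any gene did. The count at an unadjusted p under 0.05 in FMT-SP against FMT-DSS was 2 with all libraries, beside 2.5% of all genes in either direction. It was 1 without FMT-DSS 2 and FMT-DSS 4 (beside 0.83%) and 6 with covariates (beside 17.9%). With 1 library left out it was 2 to 3 (beside 1.2% to 6.38%). In FMT-DSS against FMT-CON, 4 (beside 4.06%) became 5 with covariates (beside 14.2%) and 1 without FMT-DSS 2 and FMT-DSS 4 (beside 1.29%). It was 2 without the libraries numbered 4 (beside 2.9%) and 2 with array weights (beside 3.44%). With 1 library left out it was 2 to 4 (beside 1.95% to 9.52%). In FMT-SP against FMT-CON, 0 became 1 with array weights, beside 9.12% of all genes. It was 0 to 1 with 1 library left out (Dbp, without FMT-SP 4, beside 1.03%, or without FMT-CON 2, beside 1.1%). The 4 gene pairs past the threshold became 8 without FMT-DSS 2 and FMT-DSS 4 and 2 as deviations from group means. Without the libraries numbered 4 there were again 4, of which 2 were among those of all 12 libraries. Per3 with Dbp and Per1 with Cry2 then dropped out. Nr1d2 with Dbp (r = 0.91) and Per2 with Per3 (r = 0.84) came in. The p-values of the deviations, and those without FMT-DSS 2 and FMT-DSS 4, may be too small. The cause of these shifts in count was not tested.

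Signs turned in 13 of 30 differences. In FMT-SP against FMT-DSS, Nr1d1 was at 0.12 without FMT-DSS 2 and FMT-DSS 4, and Per2 ran from -0.30 to 0.078 with 1 library left out. In FMT-DSS against FMT-CON, Nr1d1 was at -0.14 and Nr1d2 at 0.10 without FMT-DSS 2 and FMT-DSS 4; Nr1d2 was at 0.043 after median-ratio rescaling, 0.018 after quantile normalization, 0.015 after rescaling without mitochondrial genes and 0.011 with array weights; Dbp was at -0.0032 with array weights and Cry1 at -0.020 with covariates. With 1 library left out, ranges were -0.13 to 0.25 for Per2, -0.094 to 0.076 for Nr1d2, -0.080 to 0.22 for Dbp and -0.045 to 0.23 for Cry1. In FMT-SP against FMT-CON, Nr1d1 was at 0.0054 after rescaling without mitochondrial genes and Per2 at 0.074 with covariates. With 1 library left out, ranges were -0.12 to 0.045 for Nr1d1, -0.15 to 0.075 for Per1, -0.17 to 0.069 for Per2, -0.27 to 0.065 for Per3, -0.29 to 0.020 for Ciart and -0.24 to 0.036 for Cry1.

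Deviations of same-numbered libraries correlated from -0.45 to 0.84, with 9 of 12 pairs over 0.1 and the 3 pairs numbered 4 at 0.69 to 0.84. Their median was 0.30, against -0.07 for pairs of different number, of which 12 of 36 were over 0.1. Of the 12 libraries, 7 correlated best with their own number. Since not every same-numbered pair was over 0.1, the main fit did not pair the libraries. That rule cannot show that the numbers carry no pairing. With the replicate number as a block, 0 of the 10 genes passed in each comparison, 3 (Per1, Cry2 and Ciart), 4 and 0 of them had an unadjusted p under 0.05, against 2, 4 and 0 without it, and 885, 1274 and 310 of all genes had an unadjusted p under 0.05 in the 3 comparisons, against 314, 510 and 45. With 4 libraries a group, the median half-width of the 10 genes' 95% intervals was 0.47 on the log2 scale.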
